A study of Mus musculus with 2 samples.

Results

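Astrocytes are the glial cells that take up transmitter, buffer ions and water, store glycogen and cover synapses and blood vessels with fine processes. Their RNA was examined here in mouse hippocampus through 45 genes for which these cells are known, listed by symbol and matched in the annotation. All 45 matched, out of 55536 annotated genes, and all are protein-coding. Many are not exclusive to astrocytes: vessel cells also make Vim, Id3 and S1pr1, and the oligodendrocyte lineage also makes S100b.

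Both libraries are total RNA from female B6CASTF1/J mice, hybrids of the inbred strains C57BL/6J and CAST/EiJ, at 8 to 10 months of age. The tissue term is a layer of the hippocampus, with no layer named, and the labels name no treatment. Synthetic ERCC spike-in transcripts were added to the 300 ng of RNA that each library started with. Biological replicate 2 is animal 5 and replicate 1 is animal 1. The labels give both the same donor identifier, so the reading as 2 animals rests on the animal numbers, and every spread below is between these 2 libraries. They form 1 group and no conditions were compared, so no test between conditions exists and no p-value is given. Expected counts on annotated genes totalled 28356913 in replicate 2 and 34147402 in replicate 1.

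Levels are in TPM, a measure of transcript abundance normalised for length and library, so that genes can be set side by side. Detection meant 1 TPM or more in both libraries. All 45 astrocyte genes were detected, against 59.1% of the 22015 nuclear protein-coding genes annotated. Their mean counts ran from 186 to 37668. The 45 genes held 0.647% of protein-coding TPM in replicate 2 and 0.665% in replicate 1. Their median level was 27.6 TPM, against 17.5 TPM over the 13010 detected protein-coding genes, and 32 of the 45 lay above that median. A mean of at least 100 TPM was reached by 5 of them, 34 lay between 10 and 100 TPM and 6 lay below 10 TPM. The highest and the lowest, Sparcl1 and Etnppl, were 222-fold apart.

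Levels were ranked by mean TPM, and a gap between neighbours in the order was taken as a difference where it exceeded the SD of both genes and had the same sign in both libraries. That held for 14 of the 44 neighbouring pairs. The order was clear at the top, where Sparcl1, Clu, Ndrg2, Gfap and Fam107a each stood apart from the next. Sparcl1, Clu, Ndrg2 and Gfap together held 56.5% of the summed TPM of the 45 genes in replicate 2 and 55.5% in replicate 1. In the middle of the order most neighbours did not differ beyond their spread.

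**Figure D1:**
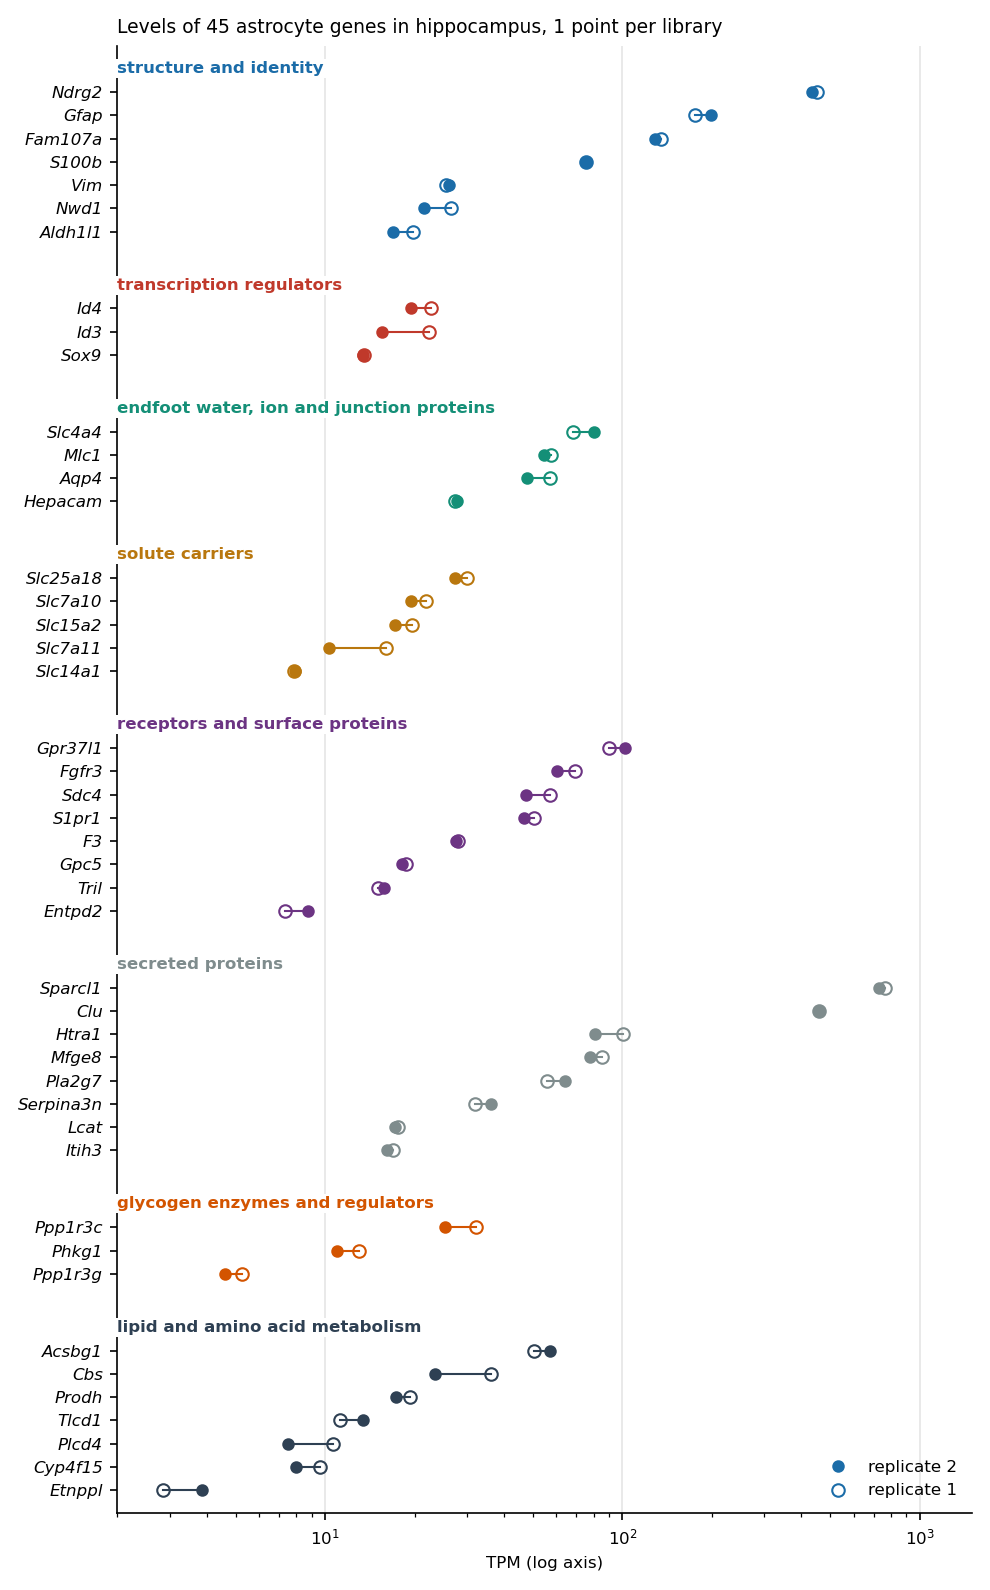
TPM of each astrocyte gene on a log axis, with genes grouped by role and ordered by mean level. Filled circles are replicate 2 and open circles are replicate 1. The 4 highest genes lie between 176 and 763 TPM, and Etnppl is lowest at 3.86 and 2.85 TPM.

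The first group holds structural and identity genes. Ndrg2, a member of the N-myc downstream regulated family that marks astrocytes, had 435 TPM in replicate 2 and 451 TPM in replicate 1. Gfap (chr11:102887336-102900912, minus strand, mm10), the intermediate filament protein that gives astrocytes their classical stain, had 199 TPM in replicate 2 and 176 TPM in replicate 1. Vim, the other intermediate filament gene of the list, had 26.1 TPM in replicate 2 and 25.4 TPM in replicate 1, far below Gfap in both. Fam107a, which encodes an actin-associated protein, averaged 132 ± 4.2 TPM (SD, n = 2, as for all means below). S100b, a calcium-binding protein, averaged 75.4 ± 0.18 TPM. Nwd1, a protein with NACHT and WD repeat domains, had 21.5 TPM in replicate 2 and 26.6 TPM in replicate 1. Aldh1l1, the folate enzyme 10-formyltetrahydrofolate dehydrogenase used widely as an astrocyte marker, was the lowest of this group with 16.9 TPM in replicate 2 and 19.8 TPM in replicate 1.

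Gfap was almost wholly made up of transcripts that differ in the end of the protein. Each library has 2 transcript tables made by different quantification programs, and a transcript's share is its percent of the gene's TPM. The main form held 91.1% in replicate 2 and 91.2% in replicate 1 in the first table, and 86.6% and 86.7% in the second. The form with the alternative tail, known as GFAP delta, held 8.71% in replicate 2 and 8.76% in replicate 1 in the first table, and 13.4% and 13.3% in the second. In the first table that is 17.4 TPM of GFAP delta in replicate 2 and 15.4 TPM in replicate 1. The shares differed less between libraries than between tables. Both forms share the coding sequence up to one junction and then take separate exons. The coding bases that mark the GFAP delta form are printed below, 5′ to 3′ on the transcript, with the shared bases before the junction in lower case and the 122 bases of that form alone, within chr11:102891399-102891520, in capitals.
Gfap alternative end: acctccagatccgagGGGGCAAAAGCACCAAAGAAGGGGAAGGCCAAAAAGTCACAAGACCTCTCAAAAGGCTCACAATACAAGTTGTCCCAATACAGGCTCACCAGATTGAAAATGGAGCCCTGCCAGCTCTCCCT

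The next-to-last exon of Vim (chr2:13581613-13581698, plus strand) has 86 bases. This exon was present in 51.0% of the TPM of informative transcripts in replicate 2 and 51.5% in replicate 1, and in 41.9% and 42.5% in the second table. Informative transcripts are those that hold the exon or splice over it. Those that hold it include a 535-base retained-intron form, with 4.15 of 13.0 TPM in replicate 2 and 4.53 of 12.7 TPM in replicate 1 in the first table. That form had 31.8 counts in replicate 2 and 41.5 in replicate 1. Skipping it shifts the reading frame, since 86 is not a multiple of 3. The skipping form is 1777 bases long and held 48.0% of all Vim TPM in replicate 2 and 47.1% in replicate 1, against 34.0% and 32.1% for the 2193-base form with the exon. These 2 annotated transcripts also start at different bases, so reads outside the exon bear on the split as well. The exon is shown in capitals between 15 neighbouring bases on each side.
Vim exon: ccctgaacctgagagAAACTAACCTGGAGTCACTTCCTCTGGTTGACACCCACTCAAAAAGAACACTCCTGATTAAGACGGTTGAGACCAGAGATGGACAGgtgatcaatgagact

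Ndrg2 was split between forms with and without a 42-base exon near the start of the coding sequence (chr14:51911086-51911127, minus strand), which leaves the reading frame intact. Inclusion was 45.03% in replicate 2 and 48.9% in replicate 1, and 41.6% and 43.3% in the second table. Transcripts with the exon summed to 184 TPM in replicate 2 and 209 TPM in replicate 1, and those without it to 225 and 218 TPM. The Ndrg2 transcripts without the exon alone exceeded the whole of Gfap in both libraries. The capitals below mark the exon.
Ndrg2 exon: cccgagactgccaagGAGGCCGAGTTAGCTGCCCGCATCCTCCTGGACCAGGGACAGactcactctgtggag

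The 3 transcription regulators averaged between 13.5 and 21.1 TPM. Id4, an inhibitor of DNA binding by basic helix-loop-helix factors, had 19.4 TPM in replicate 2 and 22.8 TPM in replicate 1. Id3 (chr4:136143497-136145755, plus strand), of the same family, had 15.6 TPM in replicate 2 and 22.3 TPM in replicate 1. Sox9, a transcription factor of glial fate, had 13.4 TPM in replicate 2 and 13.5 TPM in replicate 1, the closest values of this group.

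The endfoot group works at the processes that surround vessels. Slc4a4, the electrogenic sodium bicarbonate cotransporter NBCe1, had 80.4 TPM in replicate 2 and 68.0 TPM in replicate 1. Mlc1, a membrane protein that in humans is mutated in megalencephalic leukoencephalopathy, averaged 56.0 ± 2.0 TPM. Aqp4, the water channel of the endfoot membrane, had 47.6 TPM in replicate 2 and 57.1 TPM in replicate 1. Hepacam, the adhesion protein GlialCAM that holds Mlc1 at cell contacts, was lowest at 27.8 and 27.4 TPM. The order of the 4 genes was the same in both libraries, with Slc4a4 higher and Aqp4 lower in replicate 2.

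Slc4a4 carried an alternative exon of 97 bases near the end of its coding sequence (chr5:89232764-89232860, plus strand), whose loss shifts the frame and gives the other carboxyl terminus known from the brain form NBCe1-C. Transcripts with the exon held 72.3% of informative TPM in replicate 2 and 72.8% in replicate 1, and 64.7% and 64.2% in the second table. In TPM, 44.6 and 42.9 carried it and 17.1 and 16.1 skipped it in replicates 2 and 1. As for Gfap, the share differed less between libraries than between tables. The main form is 7931 bases long and the skipping form 3494 bases, and they differ in annotated ends too.
Slc4a4 exon: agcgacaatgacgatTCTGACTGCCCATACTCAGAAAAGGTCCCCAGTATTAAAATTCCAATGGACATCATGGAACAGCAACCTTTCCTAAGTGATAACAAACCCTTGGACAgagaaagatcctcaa

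The other solute carriers, a group that leaves out Slc4a4, were lower, with no member above 30 TPM in either library. Slc25a18, a mitochondrial glutamate carrier, had 27.3 TPM in replicate 2 and 29.96 TPM in replicate 1. Slc7a10, the Asc-1 transporter of small neutral amino acids such as serine and glycine, averaged 20.7 ± 1.7 TPM. Slc15a2, the peptide transporter PEPT2, had 17.2 TPM in replicate 2 and 19.7 TPM in replicate 1. Slc7a11, the xCT subunit that exchanges cystine for glutamate, had 10.3 TPM in replicate 2 and 16.0 TPM in replicate 1, the widest gap of this group. Slc14a1, a urea transporter, was lowest at 7.92 and 7.84 TPM.

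Receptors and surface proteins spanned 8.04 to 96.3 TPM. Gpr37l1, an orphan G protein-coupled receptor, led with 102 TPM in replicate 2 and 90.2 TPM in replicate 1. Fgfr3, a fibroblast growth factor receptor, had 60.2 TPM in replicate 2 and 69.1 TPM in replicate 1. The heparan sulfate proteoglycan Sdc4 averaged 52.4 ± 6.9 TPM and the sphingosine 1-phosphate receptor S1pr1 48.5 ± 2.5 TPM. F3, which encodes tissue factor, averaged 27.8 ± 0.31 TPM and the glypican Gpc5 18.4 ± 0.42 TPM. Tril, a partner of Toll-like receptors, averaged 15.4 ± 0.52 TPM. Entpd2, an ectoenzyme that splits ATP outside the cell, was lowest with 8.77 TPM in replicate 2 and 7.31 TPM in replicate 1. Fgfr3 transcripts mostly kept a 54-base exon (chr5:33728192-33728245, plus strand) that preserves the frame, with 94.8% inclusion in replicate 2 and 91.4% in replicate 1, and 90.6% and 89.1% in the second table. The tables placed the skipping on different transcripts. In the first it was a 3960-base form, with 188 counts in replicate 2 and 399 in replicate 1 (posterior SD for read assignment 85.6 and 116). In the second it was nearly all a 2630-base form, at 4.24 and 5.15 TPM, which the first gave 0 TPM. The 54-base exon encodes the acid box between the first immunoglobulin-like domains of the receptor, and the capitals mark it.
Fgfr3 exon: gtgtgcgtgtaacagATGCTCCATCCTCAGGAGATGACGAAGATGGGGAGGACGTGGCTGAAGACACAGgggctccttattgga

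Secreted proteins held the largest part of the RNA of the list, 1478 of 3220 TPM in replicate 2 and 1530 of 3330 TPM in replicate 1. Sparcl1 (chr5:104079111-104113733, minus strand), the matrix protein hevin that promotes synapse formation, had 729 TPM in replicate 2 and 763 TPM in replicate 1. Clu, apolipoprotein J, averaged 458 ± 1.3 TPM. Htra1, a secreted serine protease, had 80.9 TPM in replicate 2 and 101 TPM in replicate 1. Mfge8, which bridges dying material to phagocytes, averaged 81.4 ± 5.4 TPM, and Pla2g7, the hydrolase of platelet-activating factor, 59.8 ± 6.0 TPM. Serpina3n, a protease inhibitor known as a marker of reactive astrocytes, averaged 34.0 ± 2.9 TPM. It belongs to a cluster of similar genes, but the deposited posterior SD of its count, which covers read assignment, was 0.017 times the square root of the count. Lcat, which esterifies cholesterol on lipoproteins, averaged 17.4 ± 0.30 TPM. Itih3, a heavy chain that binds hyaluronan, was lowest with 16.2 TPM in replicate 2 and 16.97 TPM in replicate 1.

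The glycogen group was small and low. Ppp1r3c, a subunit that brings protein phosphatase 1 to glycogen, had 25.4 TPM in replicate 2 and 32.3 TPM in replicate 1. Phkg1, a catalytic subunit of phosphorylase kinase, had 10.9 TPM in replicate 2 and 13.0 TPM in replicate 1. Ppp1r3g, another glycogen-targeting subunit, had 4.62 TPM in replicate 2 and 5.27 TPM in replicate 1. The order of the 3 was the same in both libraries.

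Enzymes of lipid and amino acid metabolism closed the list. Acsbg1, an acyl-CoA synthetase, led with 57.1 TPM in replicate 2 and 50.5 TPM in replicate 1. Cbs, which makes cystathionine from homocysteine, had 23.4 TPM in replicate 2 and 36.2 TPM in replicate 1. Prodh, which starts proline breakdown in mitochondria, had 17.4 and 19.3 TPM in replicates 2 and 1. Tlcd1, a membrane protein with a TLC domain, had 13.4 TPM in replicate 2 and 11.3 TPM in replicate 1. Plcd4, a phospholipase C, had 7.53 TPM in replicate 2 and 10.7 TPM in replicate 1. The cytochrome P450 Cyp4f15 averaged 8.78 ± 1.2 TPM. Etnppl, which breaks down phosphoethanolamine, was the lowest gene of all with 3.86 TPM in replicate 2 and 2.85 TPM in replicate 1.

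The libraries were then compared gene by gene as the ratio of replicate 2 over replicate 1, from counts scaled by TMM, with a 95% Clopper-Pearson interval that covers counting error only. In bulk tissue, fewer cells of a type and less RNA per cell cannot be told apart. No astrocyte gene differed 2-fold, where 1.10% of the 14434 genes with a mean count of at least 50 did, and none differed 1.5-fold, where 5.22% did. The interval excluded a ratio of 1 for 24 of the 45. Of these, 7 were higher in replicate 2, or 15.6%, beside 18.7% of all genes tested, and 17 were lower, or 37.8%, beside 25.6%. These shares were not matched for depth, and an interval excludes 1 more readily at high counts. Mean counts of 50 to 1000 were found in 19 of the 45 and in 8794 of the 14434 genes tested. Scaled by spike-ins, none of the 45 had an interval above 1 and 36 had one below it, and 7 genes differed 1.5-fold. That scaling moved genes in general: 13.0% of all genes tested were then higher in replicate 2, against 45.9% with TMM. The shares of all genes past these limits under spike-ins are not given here. With TMM, the median log2 ratio was -0.04 for the 45 genes and -0.02 for all genes tested. The sizes of the ratios were ordinary: 82.2% of the astrocyte genes and 81.4% of all genes lay within 1.25-fold, and the median size on the log2 scale was 0.13 and 0.14. Split by depth, the median size was 0.10 for the 19 astrocyte genes with mean counts of 50 to 1000, against 0.17 for all genes of that range. It was 0.16 for the 20 with 1000 to 5000 counts, against 0.10, and 0.072 for the 6 with more, against 0.073.

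Id3 stood lowest, with 308 counts in replicate 2 and 524 in replicate 1 and a log2 ratio of -0.51 (interval -0.72 to -0.30). Plcd4 followed with 312 counts in replicate 2 and 523 in replicate 1 and a log2 ratio of -0.48 (interval -0.69 to -0.28). Slc7a11 had 1413 counts in replicate 2 and 2354 in replicate 1, with a log2 ratio that also rounds to -0.48 and a narrower interval of -0.57 to -0.38. Nwd1, Ppp1r3c, Cbs and Htra1 came next, between -0.37 and -0.34, so that the lowest ratios came from structural, regulatory, transport, secreted, glycogen and lipid genes alike. Sdc4, Aqp4 and Id4 followed, between -0.28 and -0.23. All 3 transcription regulators and all 3 glycogen genes had ratios below 1, with intervals that excluded 1 for 2 and 1 of them.

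At the other end stood Tlcd1 (chr11:78176711-78181909, plus strand), with 416 counts in replicate 2 and 372 in replicate 1 and a log2 ratio of 0.42 (interval 0.21 to 0.63). Raw counts are higher in replicate 1 for most genes because that library is deeper, so Tlcd1 is the only gene of the 45 with more raw counts in replicate 2. Its locus overlaps Rpl23a on the opposite strand, which had 287 TPM in replicate 2 and 312 TPM in replicate 1. Gfap had a log2 ratio of 0.18 from 8921 counts in replicate 2 and 9448 in replicate 1, and Gpr37l1, Serpina3n, Acsbg1, Pla2g7 and Slc4a4 lay between 0.08 and 0.18. These 6 ratios fell below 1 when the libraries were scaled by spike-ins, which moves the median log2 ratio of all tested genes to -0.26 and that of the astrocyte genes to -0.29. For Gpr37l1, Pla2g7, Acsbg1 and Serpina3n the interval then held a ratio of 1. Under that scaling 43 of the 45 were lower in replicate 2, all but Tlcd1 and Etnppl. The other 21 genes, Clu, S100b, Sox9, Vim, Hepacam and Aldh1l1 among them, had intervals that held a ratio of 1 under TMM.

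**Figure D2:**
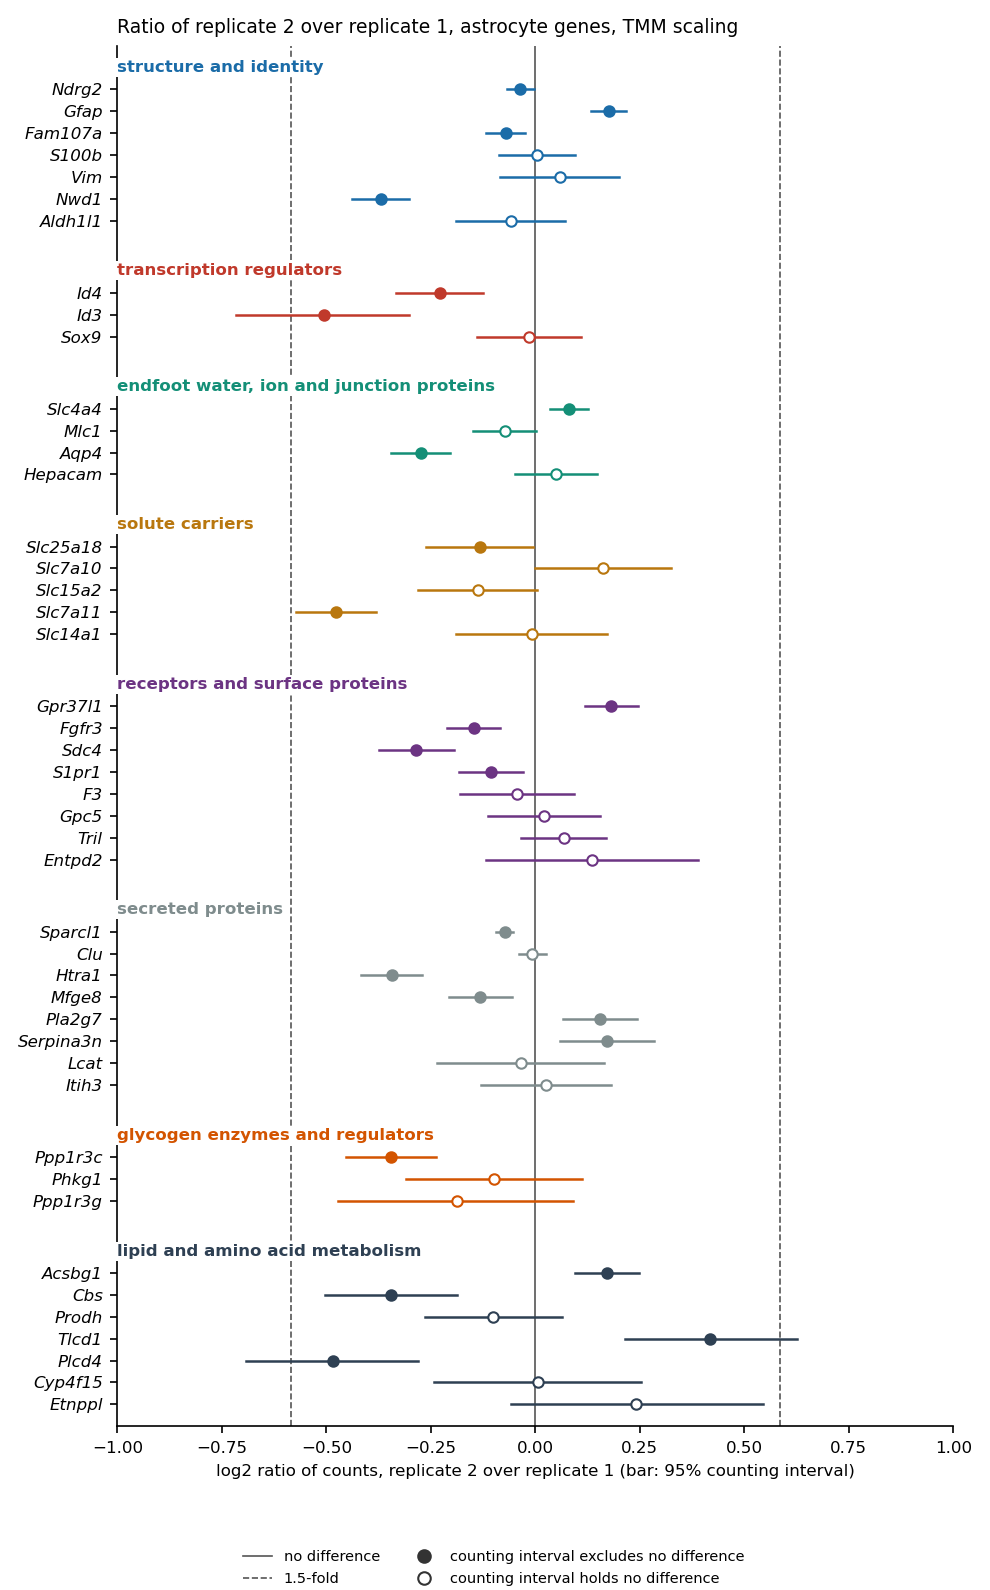
Log2 ratio of counts, replicate 2 over replicate 1, with TMM scaling for each astrocyte gene, and bars for the 95% counting interval. Filled points have an interval that excludes no difference, and all 45 points lie between the dashed lines at 1.5-fold. Under spike-in scaling 43 of the 45 ratios lie below 1, and 13.0% of all tested genes lie above it.

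Ratios from TPM did not always follow ratios from counts, because TPM divides by the length of the transcripts to which reads were assigned. They differed by more than 0.2 on the log2 scale for Slc7a10, Cbs and Cyp4f15, and their signs were opposite for 5 genes, Slc7a10, Gpc5, Itih3, Cyp4f15 and Slc14a1. For Slc7a10 the log2 ratio was -0.17 from TPM and 0.16 from counts. For Cbs it was -0.63 from TPM and -0.34 from counts. A 363-base Cbs transcript received 29.3 counts in replicate 2 and 92.3 in replicate 1, yet held 27.1% and 46.0% of the gene's TPM in the first table and 0% in the second. A short form with few reads thus carried much of the Cbs TPM in the first table.

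**Figure D3:**
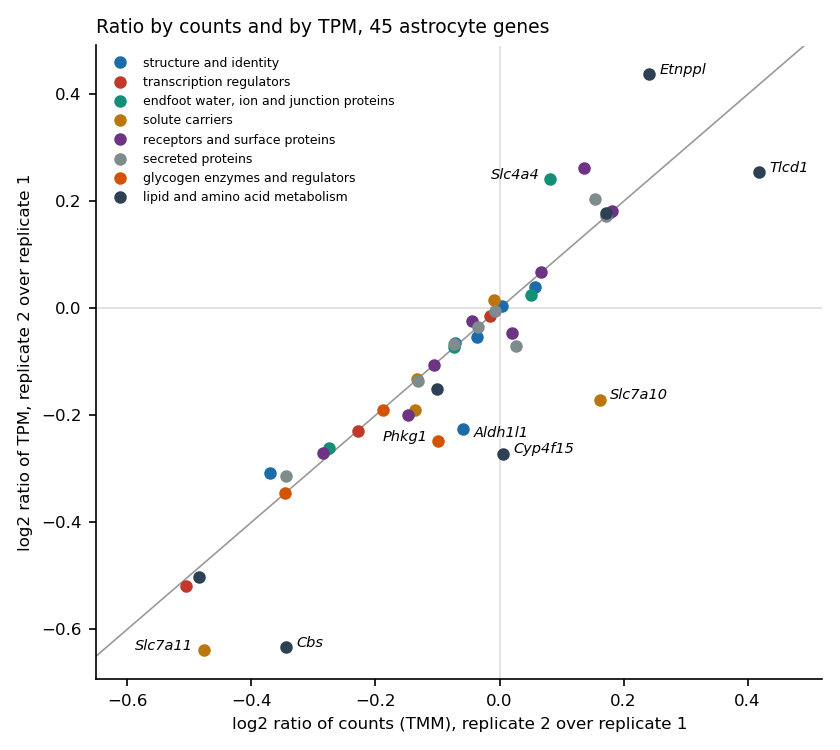
Log2 ratio of TPM against log2 ratio of counts, both replicate 2 over replicate 1, 1 point per astrocyte gene coloured by role, with the line of equality. Slc7a10, Cbs and Cyp4f15 lie farthest below the line, with a TPM log2 ratio minus count log2 ratio of -0.33, -0.29 and -0.28.

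The annotation gives the 45 genes 238 transcripts, and 10 genes have 1 only. In the first table the main transcript was protein-coding for all 45, against 91.4% of detected protein-coding genes, and in the second for 44. The same transcript led in both tables and libraries for 39 of the 45, beside 70.3% of detected protein-coding genes. These 39 include the 10 genes with 1 transcript, for which no other result was possible. The part of such genes in the 70.3% is not given here. In the first table the main transcript held at least 90% of TPM in both libraries for 17 genes, Sparcl1, Clu, Gfap, Mlc1 and Acsbg1 among them. These 17 include the 10 genes with 1 transcript. Of the named genes, only Sparcl1 reached 90% in both libraries in the second table, with 96.2% in replicate 2 and 96.9% in replicate 1. Clu held 78.2% in both there. In the first table the main transcript held less than 50% on average for 10 genes, Ndrg2, Fgfr3, Cbs, Vim, Nwd1, Slc15a2, Prodh, Tlcd1, Phkg1 and Etnppl. Fgfr3, with 17 annotated transcripts, gave its leading form 33.7% in replicate 2 and 44.3% in replicate 1. The corresponding shares were 40.2% and 41.2% for Nwd1, 51.0% and 48.0% for Slc15a2, 45.1% and 32.0% for Prodh, and 52.8% and 44.4% for Phkg1. For Tlcd1 and Etnppl the libraries did not share a leading form. The 2700-base Tlcd1 form held 38.4% in replicate 2 and 39.4% in replicate 1, and the 1412-base form 42.9% and 20.4%. The 1712-base Etnppl form held 48.8% in replicate 2 and 45.6% in replicate 1, and the 4468-base form 36.1% and 54.0%.

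The leading form differed between tables or libraries for Htra1, Cbs, Nwd1, Tlcd1, Ppp1r3g and Etnppl. Htra1 differed most in kind. Its 2041-base coding transcript held 67.8% in replicate 2 and 73.2% in replicate 1 in the first table, but 26.2% and 24.7% in the second, where a 1606-base noncoding transcript held 52.5% and 54.3%. Ppp1r3g was given wholly to its 2361-base form in the first table, while in the second that form held 63.7% in replicate 2 and 9.61% in replicate 1. Htra1 and Ppp1r3g isoforms are thus not settled by these files, although the gene-level log2 ratios of all 45 genes differed by at most 0.064 between tables.

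**Figure D4:**
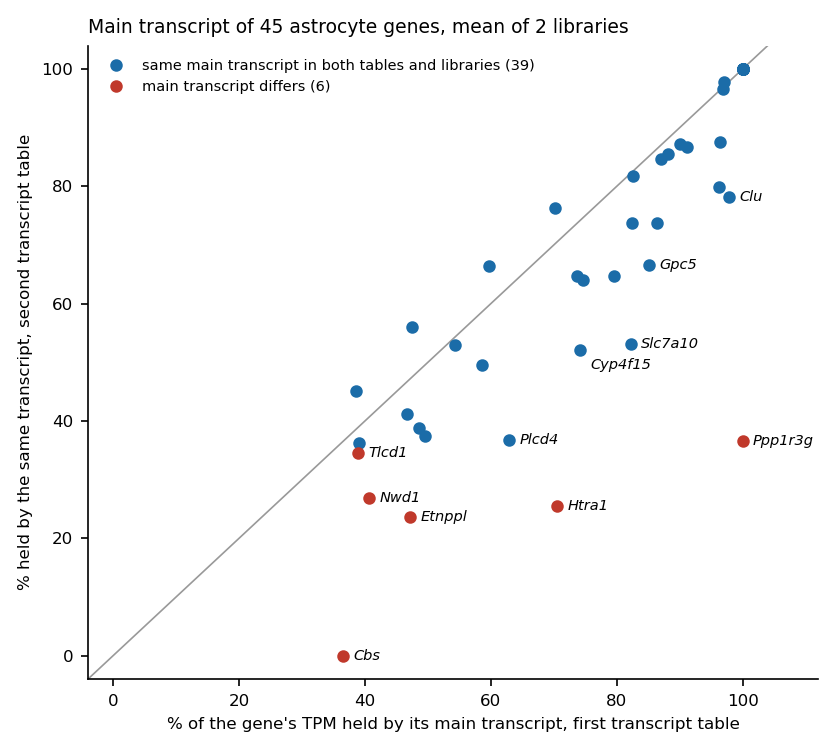
Percent of each astrocyte gene's TPM held by its main transcript in the first table (horizontal axis) and by that same transcript in the second table (vertical axis), as the mean of 2 libraries. Most genes lie near or below the line of equality, and Cbs, Htra1 and Ppp1r3g lie far below it.

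Transcripts not annotated as protein-coding held a median of 7.37% of the TPM of the astrocyte genes, against 12.3% over detected protein-coding genes. They include transcripts with a retained intron and transcripts annotated for nonsense-mediated decay. A share of at least 20% was found in 9 of the 45, beside 37.7% of detected protein-coding genes. In 7 genes it was found in both tables, namely Htra1, Nwd1, Slc15a2, Prodh, Phkg1, Plcd4 and Cyp4f15. Phkg1 had one of the highest, with 65.5% and 62.9% of its TPM on protein-coding transcripts in replicates 2 and 1. Overlapping genes limit this reading: 23 of the 45 loci overlap another annotated gene, 21 of them on the opposite strand, and in 9 the partner was itself detected. Those 9 are Entpd2, Htra1, Phkg1, Plcd4, Prodh, S100b, Slc25a18, Slc7a10 and Tlcd1, and for those with a partner on the opposite strand, which is all but Entpd2, reads of the pair cannot be told apart without the strand setting of the counting. The detected partner of Entpd2 lies on the same strand. So does a further partner of Phkg1, Chchd2, with 201 TPM in replicate 2 and 212 TPM in replicate 1. A strand setting could not separate these pairs.

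Across the list, 11 internal coding exons in 10 genes were present in some transcripts and spliced over in others, each form with a mean over the libraries of at least 5% of the gene's TPM in both tables. Inclusion values lay close together for most. Nwd1 kept a 298-base exon at 93.8% in replicate 2 and 88.3% in replicate 1, and Entpd2 a 160-base exon at 87.6% and 94.96%. Itih3 kept a 36-base exon at 71.0% in replicate 2 and 65.5% in replicate 1, and Slc14a1 included a 205-base exon at 15.5% and 11.7%. The leading skipping form of Itih3 in the first table was a 481-base retained-intron transcript, with 17.3 counts in replicate 2 and 39.9 in replicate 1. The second table gave it 0 TPM. Entpd2 skipping rested on 1 noncoding transcript, with 27.6 counts in replicate 2 (posterior SD 11.8) and 12.5 in replicate 1 (posterior SD 9.02). The Slc7a10 and Cbs exons were not steady. A 150-base exon of Slc7a10 was included at 98.4% in replicate 2 and 72.2% in replicate 1 in the first table, but at 79.7% and 71.5% in the second. The only Slc7a10 form that skips it, 419 bases long, rested on few reads. It had 1.68 counts in replicate 2 (posterior SD 6.33) and 39.9 in replicate 1 (posterior SD 8.3). A 42-base exon of Cbs was at 14.1% in replicate 2 and 35.7% in replicate 1, and at 13.7% and 49.8% in the second table. Its 36-base exon was at 41.9% in replicate 2 and 38.5% in replicate 1, and at 38.0% and 23.8% in the second table. With 552 Cbs counts in replicate 2 and 839 in replicate 1 spread over 12 annotated transcripts, few reads decide these shares.

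**Figure D5:**
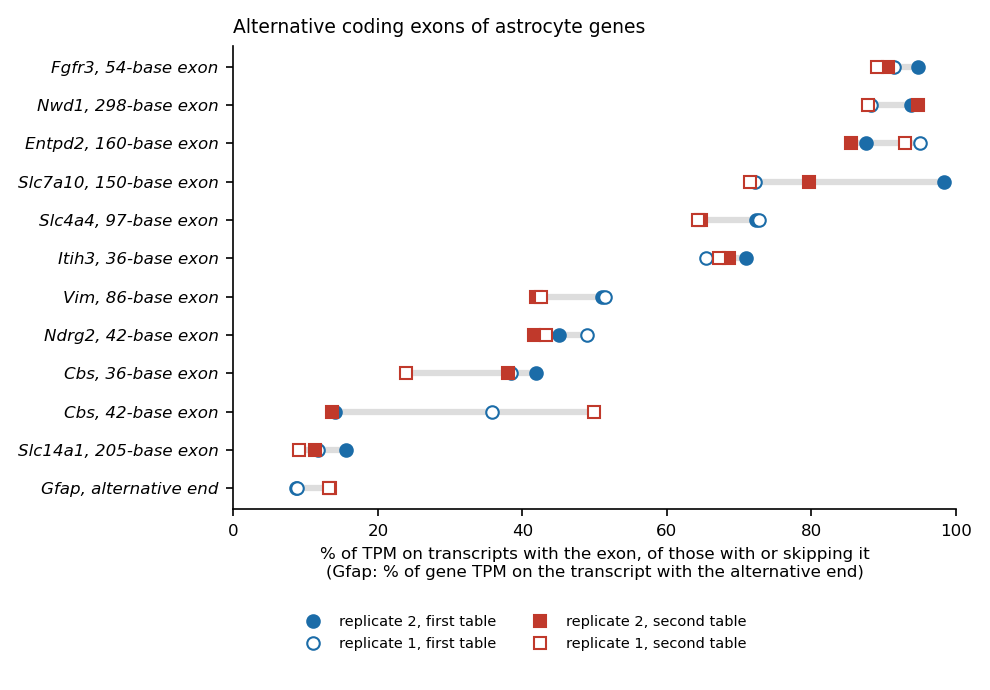
Percent inclusion of each alternative coding exon, and for Gfap the percent of TPM on the transcript with the alternative end, in replicate 2 (filled) and replicate 1 (open) from the first (circles) and second (squares) transcript tables. Ndrg2, Vim, Slc4a4 and Gfap points of one table lie close together, while the Slc7a10 150-base exon and the Cbs 42-base exon spread widely.

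Genes outside the list were examined the same way. Of 40 further genes of astrocytes, all 40 were detected, with Cst3, Glul, Apoe and Slc1a2 the highest. Cst3, cystatin C, had 954 TPM in replicate 2 and 1031 TPM in replicate 1, and Glul, glutamine synthetase, 838 and 990 TPM. Chrdl1, a secreted antagonist of bone morphogenetic proteins, was lowest with 2.21 TPM in replicate 2 and 3.0 TPM in replicate 1. None of the 40 differed 1.5-fold. Ratios were above 1 for 12 and below 1 for 28, with a median log2 ratio of -0.13, against -0.04 for the 45. Of all genes tested, 45.9% were higher in replicate 2, with a median of -0.02. Of the 40, 7 had an interval above 1 and 20 one below it, beside 18.7% and 25.6% of all genes tested, again not matched for depth. Of 33 genes induced in reactive astrocytes, 20 were detected, beside 59.1% of nuclear protein-coding genes. Bulk tissue does not show which cells made their RNA. Fkbp5, a chaperone induced by glucocorticoids, was highest at 34.3 and 34.2 TPM. The class I antigen gene H2-D1 had the second highest mean, 12.5 ± 1.0 TPM, but was not separated from Ptgs2 at 11.6 ± 4.3 TPM or Amigo2 at 11.3 ± 2.4 TPM. Timp1 was listed at 0 in both libraries, and Lcn2, a classical reactive marker, had 1 count in replicate 2 and 3 in replicate 1. Of the 18 tested, 9 were higher and 9 lower in replicate 2. Only H2-T23 passed 1.5-fold, at a log2 ratio of 0.64, beside 5.22% of all genes tested. Of the 33, 10 lay below 1 TPM in both libraries, while Gfap, Vim and Serpina3n, which reactive astrocytes also raise, were at the levels given above.

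Markers of other cell types show what else the libraries held, and all neuron, oligodendrocyte, oligodendrocyte precursor, microglia and endothelial markers examined were detected. Choroid plexus epithelium stood apart: its 12 markers summed to 658 TPM in replicate 2 and 33.7 TPM in replicate 1. Ttr, transthyretin, alone made up 615 TPM of the replicate 2 sum and 21.8 TPM of the replicate 1 sum. All 8 tested were higher in replicate 2, 7 of them at least 2-fold, and Kcne2 was at 0 counts in replicate 1. Clu and Vim, which that epithelium also expresses, had log2 ratios of -0.01 and 0.06. Meningeal fibroblast markers ran the other way, with 7 of 8 lower in replicate 2, a median log2 ratio of -0.64 and summed levels of 75.5 TPM in replicate 2 and 96.7 TPM in replicate 1. The part of either in the astrocyte ratios was not tested. The median log2 ratio was 0.03 for 10 neuron markers, 0.14 for 10 oligodendrocyte markers, -0.08 for 6 oligodendrocyte precursor markers and 0.04 for 9 microglia markers. It was -0.05 for 10 endothelial markers, -0.06 for 8 mural markers and -0.07 for 4 ependymal markers. Spike-in scaling placed the median of every list but that of the choroid plexus between -0.88 and -0.10, so the directions above zero do not hold under it. Of 8 markers of neural stem and progenitor cells, which share Gfap and Id genes with astrocytes, 5 were detected and 6 tested, 2 of them higher and 4 lower in replicate 2, with a median of -0.13. Sox11 was the 1 gene of them past 2-fold, with 3.44 TPM in replicate 2 against 7.59 TPM in replicate 1, while Dcx had a log2 ratio of 0.21.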

How the data were processed

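Values come from a gene table and 2 transcript tables per library, on mm10 and GENCODE M21, as the accompanying notes say. Expected counts per gene, TPM, FPKM and the percent of a gene's TPM per transcript were deposited by the authors in the layout of RSEM per the file headers, with a posterior SD of each count (a signal in counts) for read assignment. The second transcript table, in the layout of kallisto per the file headers, was deposited with estimated counts and TPM. The aligner, tool versions and strand setting: not given in the sources used here.

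Levels are mean TPM ± SD. Counts were rounded and scaled by TMM in edgeR 4.0.16 (R 4.3.3) with a prior count of 2, and intervals are exact Clopper-Pearson at 95%. PCR reads carry no molecular identifiers, so intervals cover counting error only. DESeq2 1.42.0 size factors, total counts, spike-ins and other alternatives were tried. Entries that name no gene, mostly spike-ins, were left out (0.212% of the counts of replicate 2, 0.178% for replicate 1). Sequences are from GENCODE M21 transcripts. The ratio calculation was tested on simulated data. The astrocyte genes and the lists were chosen with earlier results of these data known. All 45 genes are named. Values per library are given at least for the highest and lowest of each of 8 role groups and for genes whose main transcript held under 50% or differed between tables.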

Additional observations from a re-analysis of the deposited data

How the results depend on the processing

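No astrocyte gene differed 2-fold under any of the 6 alternatives for the ratios (DESeq2 size factors, total counts, spike-ins, no count minimum, counts of the second transcript table, a prior count of 0.5). Spike-in scaling changed the rest and moved genes in general. The median log2 ratio was then -0.29 for the astrocyte genes and -0.26 for all tested genes. The share of all tested genes higher in replicate 2 was 13.0%, against 45.9% with TMM. Of the 45, 7 then differed 1.5-fold, against 0 with TMM, and 36 had an interval that excluded a ratio of 1, all below it. The shares of all genes past these limits under spike-ins are not given here. Spike-in scaling turned Gfap to -0.067, Gpr37l1 to -0.062, Slc4a4 to -0.16, Pla2g7 to -0.089, Acsbg1 to -0.071 and Serpina3n to -0.071. Only Gfap and Slc4a4 of these then had an interval below a ratio of 1, and the intervals of the others held it. S100b at -0.24, Hepacam at -0.19, Vim at -0.18, Gpc5 at -0.22, Itih3 at -0.22 and Tril at -0.18, slightly above 0 under TMM, then had intervals below a ratio of 1. The cause was not tested. No other alternative turned a gene whose interval excluded 1, but ratios near 1 changed side for Clu and Slc14a1 with total counts, S100b with DESeq2 size factors, and Gpc5 and Itih3 with the second table. All 45 genes stayed detected except at a TPM of at least 5, which 43 reached. The median level was 17.1 as FPKM, 23.2 TPM in the second table and 55.3 TPM over nuclear protein-coding genes alone, and 25.4 to 27.4 TPM with either library alone. Leaving out a library gives no ratio. No paired analysis was possible because both libraries belong to 1 group. With 2 libraries, the SDs are themselves imprecise, and counts limit the shares of low genes such as Etnppl and Cbs.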
